A study of Homo sapiens with 6 samples.

Results

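Genes of deoxynucleotide and pyrimidine synthesis were examined for the effect of isolinderalactone (ILL), a sesquiterpenoid lactone of Lindera plants, in cholangiocarcinoma cells. They were RRM1, RRM2, TYMS, TK1, DUT, DTYMK, DCK, CAD and UMPS, taken by gene symbol as 9 of the 19470 genes in the deposited count table. HCCC9810, an established human cholangiocarcinoma line labelled wild type, received ILL at 20 μM or the DMSO vehicle (control), in each case for 24 h, and 3 RNA-seq libraries were made per group. The RNA comes from a single cell line at 1 dose and 1 time. The labels do not say whether the 3 libraries of a group came from separate cultures, so p-values measure the spread between these libraries, which may be technical.

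Dividing cells need a steady supply of the 4 deoxynucleoside triphosphates that DNA polymerases use. Ribonucleotide reductase makes deoxynucleotides from ribonucleotides, the thymidylate enzymes supply dTTP and keep dUTP low, and the de novo pathway builds the pyrimidine ring as UMP, while salvage kinases recycle nucleosides from outside the cell. Transcripts of several of these enzymes are known to rise when cells enter S phase, and the enzymes are targets of drugs used against tumors of the biliary tract, such as gemcitabine and fluorouracil.

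Total counts ranged from 34282764 to 37758569 per library, and the 10 genes with the most counts took 5.20% to 5.45% of them in control libraries and 8.12% to 8.25% in ILL libraries. Differences were tested with edgeR's quasi-likelihood method, with p-values adjusted over all tested genes and standard errors (SE) on the log2 scale. Levels are given as counts-per-million (CPM) on library sizes scaled by edgeR's TMM method. The 7 markers of biliary epithelium (KRT7, KRT19, KRT8, KRT18, EPCAM, SOX9 and CDH1) were summed at 9048 to 10118 CPM in the 6 libraries. The markers of hepatocytes summed to 5.49 to 16.9 CPM, those of fibroblasts to at most 18.4, those of leukocytes to at most 2.15 and those of endothelium to at most 1.91, with CYP3A4 at 0 in every library. The biliary, fibroblast, leukocyte and endothelium sums were each higher in every ILL library than in any control library, and their part in the results was not tested. Single markers did not all follow their sums. At an adjusted p-value under 0.05, KRT7, EPCAM and CDH1 were higher with ILL, and KRT19, KRT8, KRT18 and SOX9 were lower. CDH1 moved most, by 2.07 on the log2 scale. Of the other tested markers, ALB, COL1A1, CD79A and VWF were higher at the same adjusted p-value cutoff. CD79A and VWF had few counts, at most 67 and 25 in a library. APOA1, CD14 and PECAM1 had lower means with ILL, CDH5 and LUM had higher means, and none of these passed.

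All 9 genes were lower in ILL-treated cells, by between 1.69-fold for DCK and 10.1-fold for TYMS. In each of the 9, every ILL library lay below every control library, a pattern found in 38.0% of all genes tested. A gene was called a differentially expressed gene (DEG) when its adjusted p-value was under 0.05 and its level with ILL was over 2 times or under 0.5 of control. By this rule 8 of the 9 genes were DEGs lower with ILL and 0 were DEGs higher, against 11.4% of the 13066 tested genes lower and 12.5% higher. DCK passed the p-value and not the fold change. On the adjusted p-value alone all 9 were lower, against 36.9% of tested genes lower and 36.2% higher. The median log2 fold change of the 9 genes was -1.96, and that of all tested genes was -0.0012. Together the 9 genes took 0.134% to 0.135% of the counts of control libraries and 0.0258% to 0.0266% of those of ILL libraries. In bulk RNA, fewer cells that express these genes and less of their RNA per cell cannot be told apart.

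**Figure D1:**
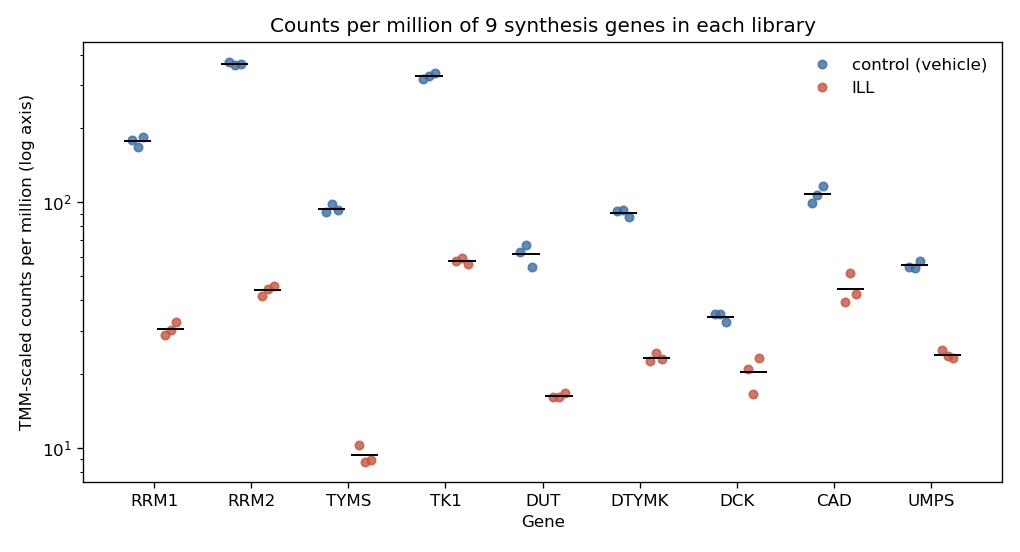
TMM-scaled CPM of the 9 genes on a log axis, with 1 point per library (3 control, 3 ILL) and black lines at the group means. In every gene the ILL points lie below the control points, with the widest gap for TYMS and the narrowest for DCK.

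The DNA in front of 5 of these genes is given below, to show the letters next to the start sites of RRM2, TYMS, TK1 and DUT, which serve the reductase and thymidylate steps, and of DCK, which fell least. The sequences are from RefSeq on GRCh38.p14, each the 130 bases before a start site, 5′ to 3′ on the strand of the gene, and all 9 genes were found in the RefSeq promoter table. Where RefSeq lists several starts, the one with the most motif matches is shown, which is 1 of 2 for RRM2, 1 of 2 for TK1 and 1 of 4 for DUT. Capitals mark matches on either strand to TTTNNCGC (the core bound by E2F factors, which switch on S phase genes), CCAAT (bound by NF-Y), TTTGAA (the CHR element of cell cycle genes) or CACGTG (the E-box bound by MYC and related factors), and no 2 marked matches overlap. In GENCODE release 29 each of the 5 stretches also lies, in part or in whole, within the annotated span of its gene, which begins further upstream.
RRM2, chr2:10122609-10122738, plus strand: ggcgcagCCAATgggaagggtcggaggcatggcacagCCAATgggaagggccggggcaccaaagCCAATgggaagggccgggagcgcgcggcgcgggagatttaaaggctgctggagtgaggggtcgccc
TYMS, chr18:657523-657652, plus strand: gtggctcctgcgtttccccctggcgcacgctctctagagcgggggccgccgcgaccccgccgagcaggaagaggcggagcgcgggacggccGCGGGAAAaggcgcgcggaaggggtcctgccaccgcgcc
TK1, chr17:78187053-78187182, minus strand: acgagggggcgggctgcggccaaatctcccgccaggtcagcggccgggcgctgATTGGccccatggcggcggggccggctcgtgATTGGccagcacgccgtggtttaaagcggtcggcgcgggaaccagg
DUT, chr15:48332067-48332196, plus strand: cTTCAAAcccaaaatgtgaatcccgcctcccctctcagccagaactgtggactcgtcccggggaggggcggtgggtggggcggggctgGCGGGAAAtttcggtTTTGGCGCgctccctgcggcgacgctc
DCK, chr4:70993519-70993648, plus strand: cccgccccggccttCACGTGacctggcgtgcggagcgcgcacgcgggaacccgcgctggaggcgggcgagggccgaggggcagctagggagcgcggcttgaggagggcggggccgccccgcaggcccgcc

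In the windows from 250 bases before to 50 bases after the start sites, the E2F core was found in 3 of the 9 genes, TYMS, DUT and DCK, and in 8.2% of the 27305 genes with a RefSeq promoter. The window of the DUT start shown held 2 of them, at 42 and 27 bases before that start. The DCK match lay 22 bases after its start, outside the stretch printed above. The windows of the other DUT starts and of the other TK1 start held no match to any of these motifs. CCAAT was found in 5 of the 9, RRM1, RRM2, TK1, DTYMK and CAD, and in 39.7% of all genes, and RRM2 alone of the 9 had 3 of them, at 123, 93 and 66 bases before its start. TTTGAA was found in RRM1, DUT and UMPS, and in 18.2% of all genes. CACGTG was found in DCK only among the 9, and in 8.8% of all genes. A match is a run of letters and not evidence of binding, and factor binding was not measured in these cells.

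**Figure D2:**
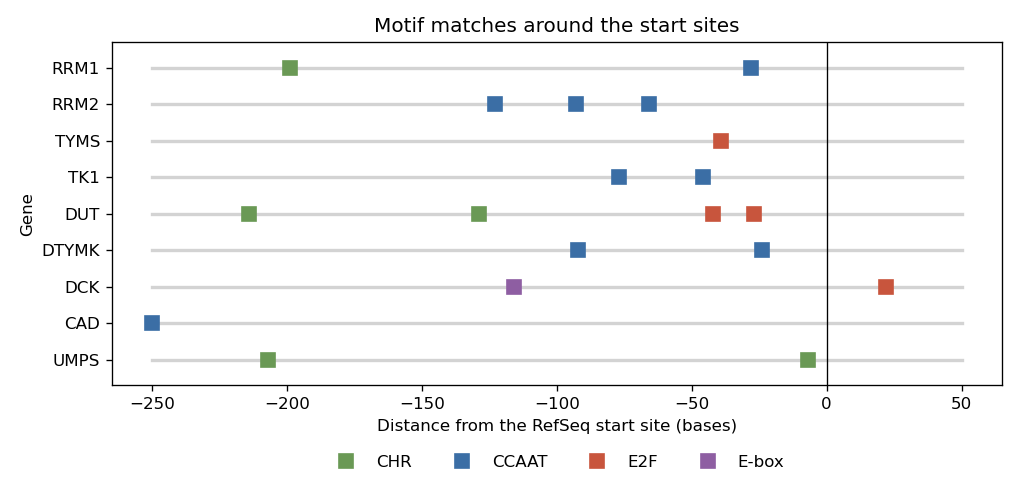
Positions of motif matches in bases from the RefSeq start site (0, vertical line), 1 row per gene, with grey lines for the window searched. For RRM2, TK1 and DUT only the start with the most matches is drawn. RRM2 has 3 CCAAT matches and DUT has 2 E2F core matches, while TK1 and DTYMK each have 2 CCAAT matches.

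Ribonucleotide reductase is formed by RRM1, the large subunit with the catalytic site, and RRM2, the small subunit that holds the radical and is made in S phase. RRM2 was at 372, 363 and 367 CPM in control libraries 1 to 3 and at 41.5, 44.3 and 45.7 CPM in ILL libraries 1 to 3. Its groups were far apart, and each varied little, so that the log2 fold change was -3.07 (SE 0.06, edgeR adjusted p = 2.4e-23). RRM1 was at 180, 168 and 185 CPM in control libraries and at 28.9, 30.1 and 32.5 CPM in ILL libraries. Its log2 fold change was -2.54 (SE 0.06, edgeR adjusted p = 6.2e-21), an RNA level of 17.2% of control against 11.9% for RRM2. RRM2 lies on chromosome 2 of GRCh38 (GENCODE release 29) from 10120698 to 10131419 and RRM1 on chromosome 11 from 4094707 to 4138876. The annotation holds 3 pseudogenes named after RRM2, with which reads can be shared, and AC007240.1 overlapping RRM2 on the same strand. RRM1-AS1 lies on the strand opposite to RRM1.

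TYMS, thymidylate synthase, methylates dUMP to dTMP and is the target of fluorouracil. It was at 90.9, 98.4 and 93.0 CPM in control libraries and at 10.3, 8.74 and 8.95 CPM in ILL libraries. The log2 fold change was -3.33 (SE 0.08, edgeR adjusted p = 1.9e-21), the largest of the 9 genes, and only 0.337% of the tested genes had a lower value. TYMS, on chromosome 18 from 657604 to 673578, overlaps TYMSOS and ENOSF1 on the opposite strand. The sources used here do not say whether reads were counted by strand, so reads of these neighbours cannot be told apart from those of TYMS. The annotation also holds 2 pseudogenes named after it.

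TK1, the cytosolic thymidine kinase, salvages thymidine to dTMP and is a serum marker of proliferation. It was at 317, 329 and 336 CPM in control libraries and at 57.9, 59.2 and 55.9 CPM in ILL libraries. The log2 fold change was -2.51 (SE 0.05, edgeR adjusted p = 5.6e-22), close to that of RRM1. TK1 lies on chromosome 17 from 78174075 to 78187233 and overlaps no other annotated gene.

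DUT, the dUTPase, hydrolyzes dUTP to dUMP and so both supplies TYMS and keeps uracil out of DNA. It was at 62.9, 66.8 and 54.8 CPM in control libraries and at 16.1, 16.1 and 16.8 CPM in ILL libraries, and the controls were the more spread. DTYMK, thymidylate kinase, turns dTMP from either TYMS or TK1 into dTDP. It was at 91.8, 93.0 and 86.8 CPM in control libraries and at 22.6, 24.3 and 23.0 CPM in ILL libraries. The log2 fold changes were -1.91 (SE 0.08) for DUT and -1.96 (SE 0.07) for DTYMK, with adjusted p-values of 1.1e-16 and 1.6e-18 in edgeR. DUT (chromosome 15, 48331011 to 48343373) makes nuclear and mitochondrial enzymes from different starts, which counts per gene do not separate. It also has 8 annotated pseudogenes that can share its reads, and AC023355.1 overlaps it on the opposite strand. DTYMK lies on chromosome 2 from 241675742 to 241686991.

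DCK, deoxycytidine kinase, salvages deoxycytidine, deoxyadenosine and deoxyguanosine and activates gemcitabine. It was at 34.9, 35.1 and 32.5 CPM in control libraries and at 20.9, 16.6 and 23.3 CPM in ILL libraries. The groups did not overlap, but the ILL libraries were more spread than in the other salvage kinase, TK1, and ILL replicate 2 was the lowest. The log2 fold change was -0.75 (SE 0.10, edgeR adjusted p = 1.5e-07), with 16.8% of the tested genes lower. Without any single library it lay between -0.86 and -0.63. The DCK gene model, on chromosome 4 from 70992538 to 71030914, overlaps MOB1B on the same strand.

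CAD carries the first enzymes of de novo pyrimidine synthesis in 1 polypeptide, from glutamine to dihydroorotate. It was at 99.8, 107 and 116 CPM in control libraries and at 39.4, 51.6 and 42.3 CPM in ILL libraries, with ILL replicate 2 the highest of the ILL group. UMPS, which joins the pyrimidine ring to ribose phosphate and completes UMP, was at 54.7, 54.2 and 57.5 CPM in control libraries and at 25.0, 23.7 and 23.2 CPM in ILL libraries. Both genes were at less than 0.5 of their control level. The log2 fold changes were -1.28 (SE 0.08) for CAD and -1.21 (SE 0.07) for UMPS, with adjusted p-values of 3.3e-13 and 7.0e-14 in edgeR. CAD lies on chromosome 2 from 27217390 to 27243943 and UMPS on chromosome 3 from 124730366 to 124749273, where MIR544B overlaps it on the same strand and AC022336.1 on the opposite strand. DHODH, the mitochondrial enzyme that acts between them, was a DEG at a log2 fold change of -1.35 (SE 0.19, edgeR adjusted p = 7.1e-07), so that each of the 3 proteins of de novo UMP synthesis had a lower transcript level with ILL. In limma on log2(FPKM + 1) the DHODH value was -0.83, short of the DEG cutoff.

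Levels of different genes were compared as FPKM, the deposited values that scale counts to library total and gene length. In control libraries TK1 was the highest of the 9 at 217 ± 5.45 FPKM (SD, n = 3), followed by RRM2 at 110 ± 1.66, DTYMK at 77.2 ± 3.08, TYMS at 56.0 ± 2.28 and RRM1 at 51.5 ± 2.49. DUT, CAD, DCK and UMPS followed, from 19.7 ± 2.04 down to 8.54 ± 0.242 FPKM (SD, n = 3). Of neighbours in this order, only CAD and DCK overlapped between libraries. With ILL, TK1 stayed the highest at 36.5 ± 0.986 FPKM (SD, n = 3), and DTYMK at 18.9 ± 0.587 was above RRM2 at 12.5 ± 0.550. TYMS moved from the fourth place to the seventh, at 5.29 ± 0.505 FPKM (SD, n = 3), and from RRM1 through DCK, CAD and TYMS to DUT each gene overlapped the next in order. The 9 levels were thus closer together with ILL, from 3.52 to 36.5 FPKM, than in control cells, from 8.54 to 217 FPKM.

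**Figure D3:**
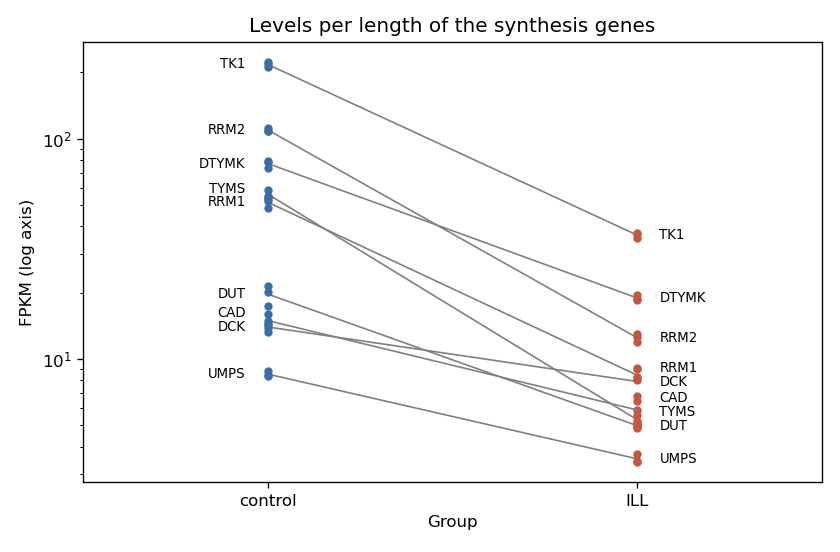
FPKM of the 9 genes on a log axis, with 1 point per library and grey lines joining the control mean to the ILL mean of each gene. The TYMS line falls from 56.0 to 5.29 FPKM and crosses those of RRM1, CAD and DCK, while the DCK line is the flattest.

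Ratios between 2 genes of the same library do not depend on how libraries are scaled, and 5 were tested, of which 4 are given, by a two-sided exact permutation test of their log2 values. With 3 libraries against 3, the smallest p this test can give is 0.1, so none could pass 0.05. The ratio of RRM2 to RRM1 was 2.13 ± 0.0933 (SD, n = 3) in control libraries and 1.48 ± 0.0335 in ILL libraries, a log2 difference of -0.53 (exact permutation p = 0.1, adjusted p = 0.125 over the 5 ratios). The small subunit therefore fell further than the large one in these libraries, with no overlap between groups.

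RRM2B, the small subunit that p53 induces and that quiescent cells use, did not fall with RRM2. It was at 70.2, 65.0 and 63.3 CPM in control libraries and at 89.5, 78.0 and 82.0 CPM in ILL libraries, a log2 fold change of 0.33 (SE 0.06, edgeR adjusted p = 6.5e-05). The ratio of RRM2 to RRM2B was 8.17 ± 0.364 (SD, n = 3) in control libraries and 0.779 ± 0.0833 in ILL libraries, so RRM2B was the higher of the 2 small subunits in FPKM in all 3 ILL libraries. This log2 difference was -3.40 (exact permutation p = 0.1, adjusted p = 0.125).

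TK2, the mitochondrial thymidine kinase, had a log2 fold change of -0.49 (SE 0.14, edgeR adjusted p = 0.0043), so it fell without being a DEG. The ratio of TK1 to TK2 was 126 ± 2.61 (SD, n = 3) in control libraries and 31.8 ± 5.57 in ILL libraries (exact permutation p = 0.1, adjusted p = 0.125). The groups were apart in this ratio. The ratio of CAD to UMPS was 1.75 ± 0.0937 (SD, n = 3) in control libraries and 1.67 ± 0.272 in ILL libraries, with overlapping groups and a log2 difference of -0.08 (SE 0.14, exact permutation p = 0.6, adjusted p = 0.6).

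**Figure D4:**
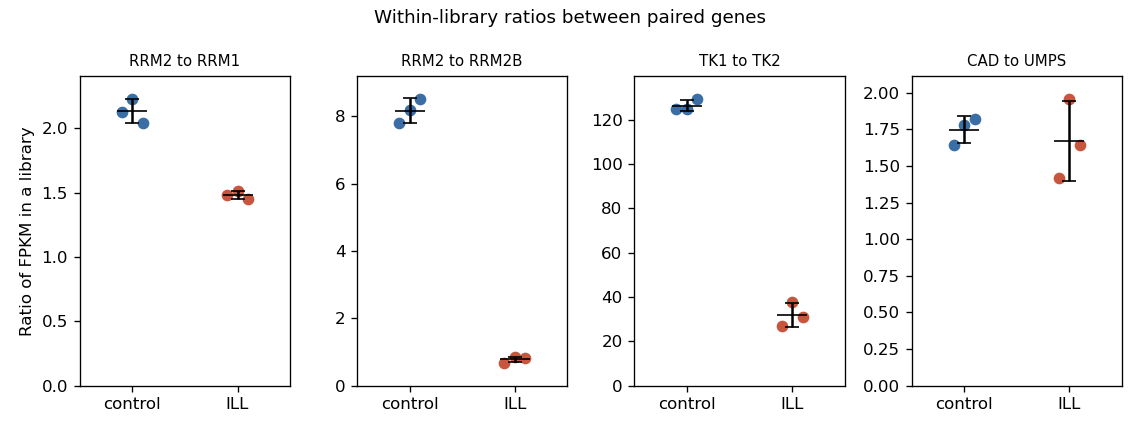
Ratio of FPKM between 2 genes in each library, 1 panel per ratio, with points for the 3 libraries of a group, black dashes at the mean and bars of 1 SD, on axes that start at 0. The ratios of RRM2 and TK1 to their partners are lower in all ILL libraries, with RRM2 to RRM2B at 8.17 against 0.779, and CAD to UMPS overlaps between groups.

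The rest of the pathway was described by 54 further genes in 8 lists by role, of which 51 were tested. Of these, 16 were DEGs lower with ILL and 5 were DEGs higher, against 11.4% of all tested genes lower and 12.5% higher. On the adjusted p-value alone 31 were lower, 11 higher and 9 did not pass. Of all tested genes, 36.9% were lower and 36.2% higher by that rule. The DEG shares of all tested genes also stand beside the list counts that follow. The median log2 fold change was -0.35. The further genes moved in both directions, with more lower than higher, where the 9 synthesis genes moved in 1.

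Among suppliers of UMP synthesis, 2 of 7 genes were DEGs, both lower. PRPS1, which makes the ribose phosphate donor PRPP, was at 31.7 ± 0.700 CPM (SD, n = 3) in control libraries and 9.75 ± 1.07 in ILL libraries, a log2 fold change of -1.70 (adjusted p = 5.4e-14, edgeR). The other was DHODH, given above. In the list of CTP synthases and nucleotide kinases, 2 of 8 were DEGs, both lower. CTPS1, which turns UTP into CTP, fell by 1.16 on the log2 scale (adjusted p = 3.4e-14, edgeR). NME1, a nucleoside diphosphate kinase, fell by 1.34 (adjusted p = 3.0e-15, edgeR), and its reads can be shared with NME2.

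The list around ribonucleotide reductase, which holds RRM2B, genes of electron supply to the enzyme and SLFN11, had 2 DEGs higher and 1 lower among 5 genes. GLRX, glutaredoxin, was at 5.19 ± 1.25 CPM (SD, n = 3) in control libraries and 21.6 ± 0.947 in ILL libraries, a log2 fold change of 2.06 (adjusted p = 8.8e-13, edgeR). TXNRD1, which keeps thioredoxin reduced, rose from 155 ± 6.86 CPM to 622 ± 39.8 CPM (SD, n = 3), which was 400.2% of control (adjusted p = 4.4e-20, edgeR). The transcripts of GLRX and TXNRD1 thus went up while those of both RRM1 and RRM2 went down. SLFN11, which acts at stalled replication forks, fell by 1.92 on the log2 scale (adjusted p = 1.8e-11, edgeR).

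Of 8 folate genes of the thymidylate cycle, 4 were DEGs lower and 1 was a DEG higher. MTHFD1, the cytosolic trifunctional folate enzyme, was at 209 ± 8.87 CPM (SD, n = 3) in control libraries and 57.7 ± 3.02 in ILL libraries, a log2 fold change of -1.86 (adjusted p = 4.3e-19, edgeR). The DEG that was higher was MTHFD2, its mitochondrial relative, which rose from 162 ± 6.87 CPM to 493 ± 14.9 CPM (SD, n = 3), a log2 fold change of 1.61 (adjusted p = 6.7e-19, edgeR).

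Of 6 genes that balance or clean the deoxynucleotide pool, 2 were DEGs, both lower. DCTPP1, the dCTP pyrophosphatase, fell by 1.94 on the log2 scale (adjusted p = 1.6e-17, edgeR). SAMHD1, which hydrolyzes deoxynucleoside triphosphates, moved the other way. It was at 58.5, 59.9 and 59.7 CPM in control libraries and at 85.0, 94.7 and 86.5 CPM in ILL libraries, a log2 fold change of 0.58 (adjusted p = 5.5e-09, edgeR).

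Of 7 genes of mitochondrial supply, 2 were DEGs lower and 1 was a DEG higher. SLC25A33, a pyrimidine nucleotide carrier, fell by 1.22 on the log2 scale (adjusted p = 1.5e-07, edgeR). CMPK2, the mitochondrial UMP-CMP kinase, rose from 19.5 ± 1.52 CPM to 64.2 ± 1.90 CPM (SD, n = 3), a log2 fold change of 1.72 (adjusted p = 1.7e-16, edgeR).

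Of 7 genes of uptake and salvage, 6 were tested and 2 were DEGs, both lower. SLC29A1, the equilibrative nucleoside transporter through which gemcitabine also enters, was at 32.9 ± 1.53 CPM (SD, n = 3) in control libraries and 6.90 ± 0.375 in ILL libraries, a log2 fold change of -2.25 (adjusted p = 2.0e-16, edgeR). UCK2, the uridine-cytidine kinase of proliferating cells, fell by 1.80 (adjusted p = 2.5e-17, edgeR). Of 6 breakdown genes, 4 were tested, with 1 DEG in each direction. TYMP, which cleaves thymidine to thymine, was at 92.5, 97.1 and 86.5 CPM in control libraries and at 410, 471 and 413 CPM in ILL libraries. Its log2 fold change was 2.23 (SE 0.06, edgeR adjusted p = 3.4e-20), the largest increase of the pathway genes tested. DPYD, the first enzyme of uracil and thymine breakdown, fell by 1.60 (adjusted p = 2.5e-14, edgeR).

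**Figure D5:**
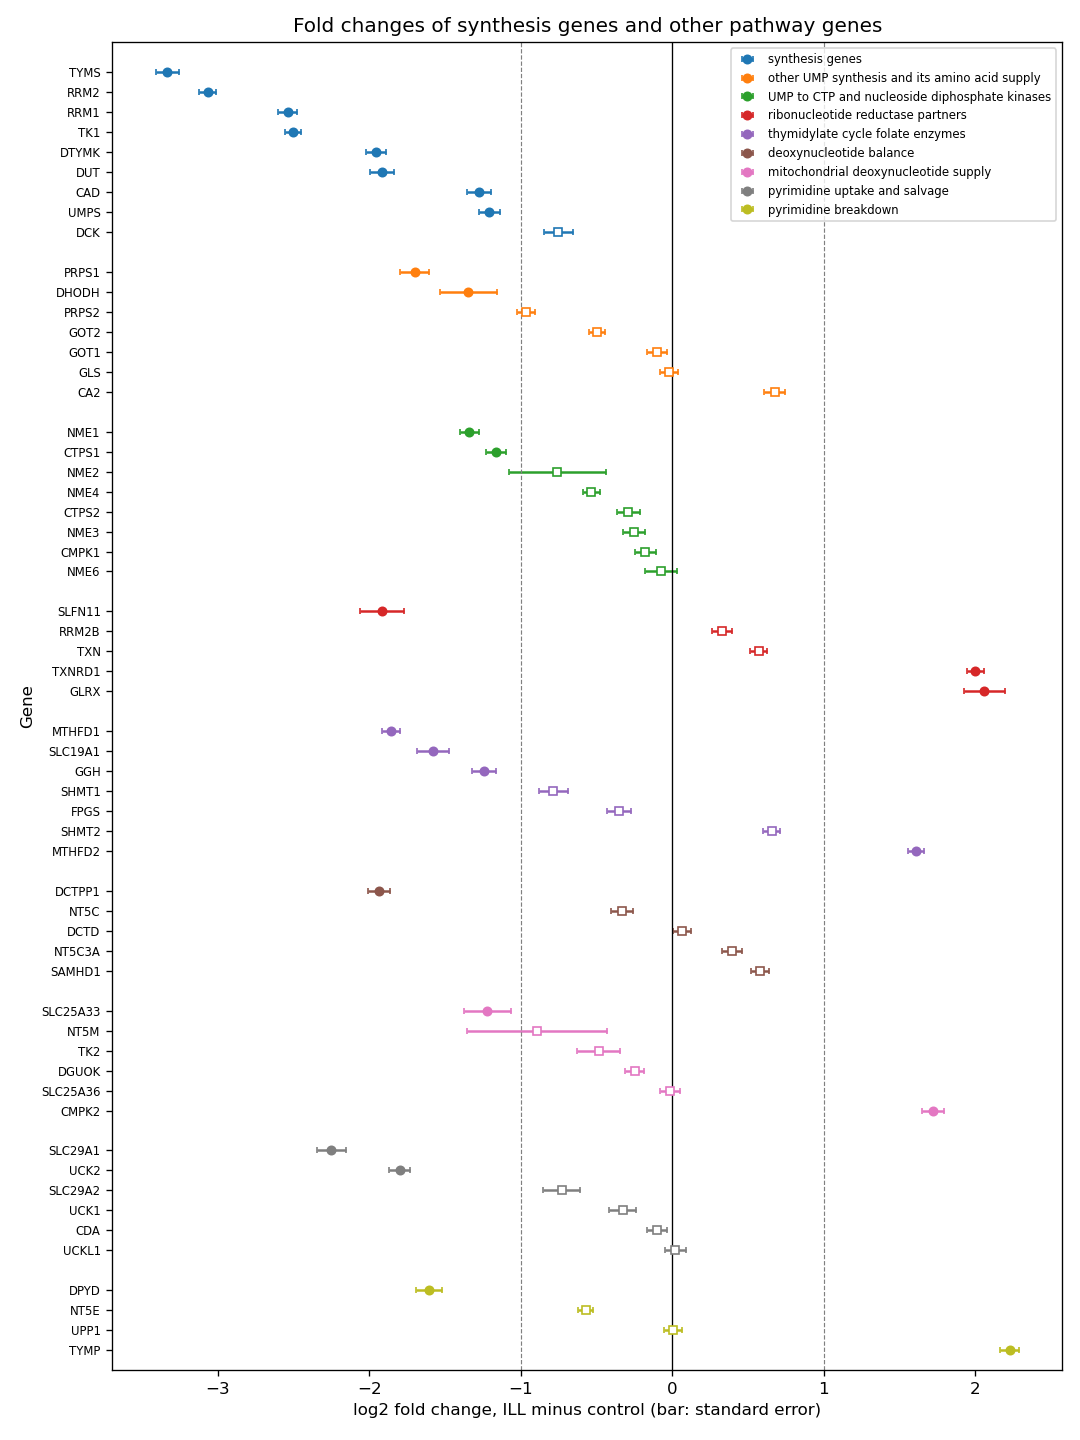
Log2 fold change (ILL minus control) of the 9 synthesis genes and of other tested genes of the 8 role lists, with bars of 1 standard error, filled circles for DEGs, open squares for other genes and dashed lines at -1 and 1. All 9 synthesis genes lie left of 0, and the DEGs on the right are GLRX, TXNRD1, MTHFD2, CMPK2 and TYMP.

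For comparison, all 16 genes of a list of replication factors were DEGs lower with ILL, with log2 fold changes from -2.89 for ORC1, a subunit of the origin recognition complex, to -1.59 and a median of -2.42. GMNN, the licensing inhibitor geminin, was next at -2.85. Of 10 purine synthesis genes 6 were DEGs, all lower, with a median of -1.22, led by PAICS and PPAT at -2.34 each. The median of the 9 pyrimidine and deoxynucleotide genes, -1.96, lay between the medians of these lists, and differences between lists were not tested.

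Of 7 proliferation markers 6 were DEGs lower with ILL, led by TOP2A at a log2 fold change of -3.55 (adjusted p = 4.0e-24, edgeR) and CCNA2 at -3.29. Among 8 regulators of these genes or of the cell cycle, 3 were DEGs lower and 1 was a DEG higher. CCNF, the cyclin that directs RRM2 protein to degradation, fell by 2.95 on the log2 scale (adjusted p = 2.0e-19, edgeR), and E2F2 fell by 2.92 (adjusted p = 2.4e-11, edgeR).

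The genes whose levels followed those of TYMS most closely over the 6 libraries were KIF15, FAM83D and MKI67. They had the smallest Euclidean distances between log2 CPM values centred on each gene's mean, at 0.197, 0.219 and 0.222. KIF15, a mitotic kinesin, was at 943, 888 and 907 counts in control libraries and 94, 75 and 71 in ILL libraries, a log2 fold change of -3.44 against -3.33 for TYMS. FAM83D, a spindle protein, had -3.46 and MKI67, which encodes Ki-67, had -3.21. The distances are dominated by the step between the groups, so they rank genes with a fall of like size.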

How the data were processed

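RNA from 6 HCCC9810 libraries, 3 control and 3 ILL, was analysed from the deposited raw read counts per gene symbol. The authors also deposited FPKM values, which are these counts per gene length and library total, since that formula with 1 whole-number length per gene returned 100% of the 88055 nonzero FPKM values within 0.1%. The submitters' processing notes name GRCh38 and DESeq2, and the aligner, counting program and annotation are not given in the sources used here. From the counts, edgeR 4.0.16 (R 4.3.3) kept 13066 of 19470 genes with filterByExpr, scaled libraries by TMM and tested ILL against control with its quasi-likelihood test and Benjamini-Hochberg adjustment over all tested genes. The DEG cutoffs follow the methods of the paper. Library totals were 34282764 to 37758569 counts, and edgeR estimated a common biological coefficient of variation of 0.0717 for the spread between replicates. For genes with few counts, such as DHODH at 86 to 96 in ILL libraries, the sampling noise of counts adds to this spread. The fit was tested on simulated counts.

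The members, role lists and alternatives were chosen with earlier results of these data known. Named were the 9 members, RRM2B, TK2, DHODH, CTPS1 and SAMHD1, at most 3 DEGs of largest change per role list and at most 2 per comparison list, and the 3 genes nearest to the member that changed most. Some genes of the lists are not reported here, though they enter the counts and medians. Gene positions come from GENCODE release 29 on GRCh38. The alternatives were other scalings and filters, DESeq2 1.42.0, limma 3.58.1 on log2 of FPKM plus 1 or 0.1, a replicate block and each library left out. No library was a repeat of another: chi-square over degrees of freedom was 5.09 to 11.5 for replicate pairs, above the sampling noise of counts.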

Additional observations from a re-analysis of the deposited data

How the results depend on the processing

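The count of synthesis genes called lower was 8 of 9 in the 15 alternative fits, and 9 on the adjusted p-value alone. Each of the 9 genes kept its direction and an adjusted p-value under 0.05 in all 15. So did the other named genes in every fit that included them, with E2F2 in 13 of the 15 because its FPKM was under the filter of the other limma fits. DHODH, at -0.83 in both limma fits on log2(FPKM + 1), was no DEG there. The median log2 fold change of the 9 genes was -2.03 with library size only and -2.02 with limma on log2(FPKM + 0.1), and from -1.99 to -1.94 without 1 library. Unscaled library sizes shifted the all-gene median to -0.07 and the share of DEGs that were higher from 52.4% to 47.4%. When limma was run on log2(FPKM + 1), 923 genes were called lower and 668 higher, without the FPKM filter 929 and 680, and with a pseudocount of 0.1, 909 were called higher. That share was 42.0% to 42.3% in these 3 fits, and the cause was not tested. Without the fold change cutoff, 4821 genes were called lower and 4726 higher, and of the other pathway genes 31 lower and 11 higher. The difference in the log2 ratio of CAD to UMPS was 0.038 without ILL replicate 1, with a range of -0.20 to 0.038 when single libraries were left out. Same-numbered libraries did not deviate together (correlations of -0.02 to 0.01 across genes), so the numbers were not used as pairs. Such correlations cannot show whether same-numbered libraries were prepared together. With the replicate block, 8 of the 9 genes were called lower, with a median of -1.96. Precision is limited by 3 libraries per group. These 9 genes had at least 301 counts in every library, and the part of sampling noise in their spread was not separated.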

Other observations

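SHMT1 and SHMT2, the cytosolic and mitochondrial serine hydroxymethyltransferases that supply one-carbon units, were singled out after their values were seen. SHMT1 was at 921, 953 and 940 counts in control libraries and 551, 543 and 467 in ILL libraries, a log2 fold change of -0.79 (standard error, SE, 0.10, edgeR adjusted p = 7.4e-08). SHMT2 was at 4706, 4376 and 4844 counts in control libraries and 7103, 7072 and 6839 in ILL libraries, a log2 fold change of 0.66 (SE 0.06, edgeR adjusted p = 1.2e-10). SHMT1 and SHMT2 passed the p-value and not the fold change, so neither was a DEG. The cytosolic MTHFD1 fell in the same libraries and the mitochondrial MTHFD2 rose, and both of these were DEGs.

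Of the regulators, E2F1 and CDKN1A were also singled out after their values were seen. E2F1, a transcription factor of S phase genes, was at 5032, 4768 and 4412 counts in control libraries and 905, 1042 and 1103 in ILL libraries, a log2 fold change of -2.15 (SE 0.07, edgeR adjusted p = 8.3e-19). CDKN1A, which encodes the cyclin-dependent kinase inhibitor p21, was at 3890, 3461 and 3953 counts in control libraries and 26552, 26848 and 25904 in ILL libraries, a log2 fold change of 2.88 (SE 0.06, edgeR adjusted p = 9.2e-23). RRM2B, a p53 target like CDKN1A, rose by 0.33 in the same fit.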
